A study of Sus scrofa domesticus with 4 samples.

Results

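The genes of the cytosolic ribosome were followed in the anterior pituitary of pigs in early pregnancy and on matching days of the estrous cycle. Members were all non-control probes whose RefSeq accession is assigned a symbol beginning with RPL or RPS and a digit, or with RPLP or RPSA, S6 kinases left out. This gave 187 of 43603 probes, which belong to 37 of the 3029 genes with a RefSeq symbol on the array. Of the 84 such symbols in the pig RefSeq annotation 47 had no probe matched by accession, RPS6, RPS27A, RPL4 and RPLP1 among them, and they were not analysed here. RPL7L1 met the rule by its symbol but encodes a nucleolar assembly factor and not a protein of the finished ribosome, and it is described apart. RefSeq symbols were matched at the level of the transcript accession alone, and the oligonucleotide sequences were not used here.

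The animals were mature gilts (female pigs that have not yet farrowed) of a Large White x Polish Landrace cross, with no treatment named. The pregnant group held 4 gilts that had been bred naturally and carried conceptuses, and the cyclic group held 4 gilts, all collected on days 15 to 16. Each of 4 Agilent two-colour arrays carried labelled RNA of 1 pregnant and 1 cyclic gilt, so the array was the replicate. The label fields give the pregnant gland the green dye Cy3 on arrays 1 and 3 and the red dye Cy5 on arrays 2 and 4. The labelling protocol's text instead names Cy3 for pregnant and Cy5 for cyclic RNA without a swap, and results under that reading are given where they differ.

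Ribosomal proteins clothe and stabilise the RNA core of the ribosome. The small subunit reads the messenger RNA, the large subunit joins amino acids, and the stalk of the large subunit recruits the factors that drive each step. Most of their messenger RNAs begin with a pyrimidine tract through which nutrient and growth signals set their translation, so their protein output can change without a change in transcript amount. In endocrine glands such as the pituitary the ribosome carries the synthesis of large amounts of secreted hormone. Ribosomal protein genes have many processed pseudogenes and, for some members, near-identical paralogs. Hybridisation of such copies to a probe cannot be told apart from the gene itself here.

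All 187 member probes were well above background in all 8 channels, and 0 were saturated. They were among the brightest spots, with a median of the mean log2 intensity of 16.36 and a range from 11.08 to 17.80, against a median of 8.51 over all 25191 probes kept for testing. In bulk tissue, fewer cells of a type and less RNA per cell cannot be told apart. All 7 hormone genes that mark the secretory cells of the anterior lobe, GH1, PRL, POMC, CGA, LHB, FSHB and TSHB, were above background in all 8 channels, and so was OXT of the posterior lobe, while AVP was in 3. Endothelial PECAM1, CDH5 and VWF and stromal COL1A2 and DCN were also above background in all 8. No gene of these marker lists passed at an adjusted limma p under 0.05. At an unadjusted p under 0.05 there was 1 of the 7 hormone genes, LHB, at -0.42 ± 0.15, against 8.01% of all probes. There were 0 of the endothelial, stromal and posterior lobe genes. Some hormone genes varied widely between arrays. In log2 pregnant over cyclic, TSHB gave -1.67, 4.48, -3.02 and -4.20 on arrays 1 to 4. On array 3 GH1 stood at -2.50 and FSHB at 2.53. LHB, PRL, POMC and CGA lay between -0.94 and 0.64 on every array. The part of other cell types in the results was not tested. Values below are log2 ratios of pregnant over cyclic, called the group term once fitted, or log2 ratios of red over green, called the dye effect once fitted. The ± is the standard error of a limma fit over 4 arrays that estimates both terms for every probe. A gene is represented by its brightest probe unless stated otherwise.

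No ribosomal protein gene differed between pregnant and cyclic glands beyond the error of the fit. Of the 37 genes 0 had an unadjusted limma p under 0.05, against 8.01% of all probes tested. At an adjusted p under 0.05 there were 0 of 37, as there were 0 of 25191 over the whole array, and the members' adjusted limma p ran from 0.611 upward. Counting every probe, 2 of 187 had an unadjusted p under 0.05, both lower in the pregnant gland. Over all probes 4.59% were lower and 3.43% higher at that threshold. The lowest group term of the 37 genes was -0.24, that of RPL10. A group term of at least 1.2-fold in either direction was found for 0 of 37 genes and 4 of 187 probes, against 17.8% of all probes. The 95% intervals of the 37 genes had a median reach of 0.27 to either side and their outermost limits were -0.53 and 0.45. The median group term was -0.046 over the genes and -0.064 over the probes, against -0.0097 over all probes tested.

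The sign of that median was not stable across the alternatives tried. Before the dye effect was removed, the members' median on arrays 1 to 4 was -0.24, 0.29, -0.40 and 0.14. These array values still hold the dye effect, so their alternation does not bear on the sign of the group term. The pair of arrays with pregnant RNA in green was low and the pair with pregnant RNA in red was high. An estimate below 0 was found for 27 of 37 genes, against 52.4% of all probes, but for 18 of 37 in the deposited ratios, 18 without array 4, 19 without array 3, and 3 of 37 with background parameters taken from all spots, where the median stood at 0.27. Among other probes of the members' middle brightness range, 15.78 to 16.98 on the log2 scale, the median group term was -0.084 (247 probes), and among members in that range it was -0.076 (93 probes).

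**Figure D1:**
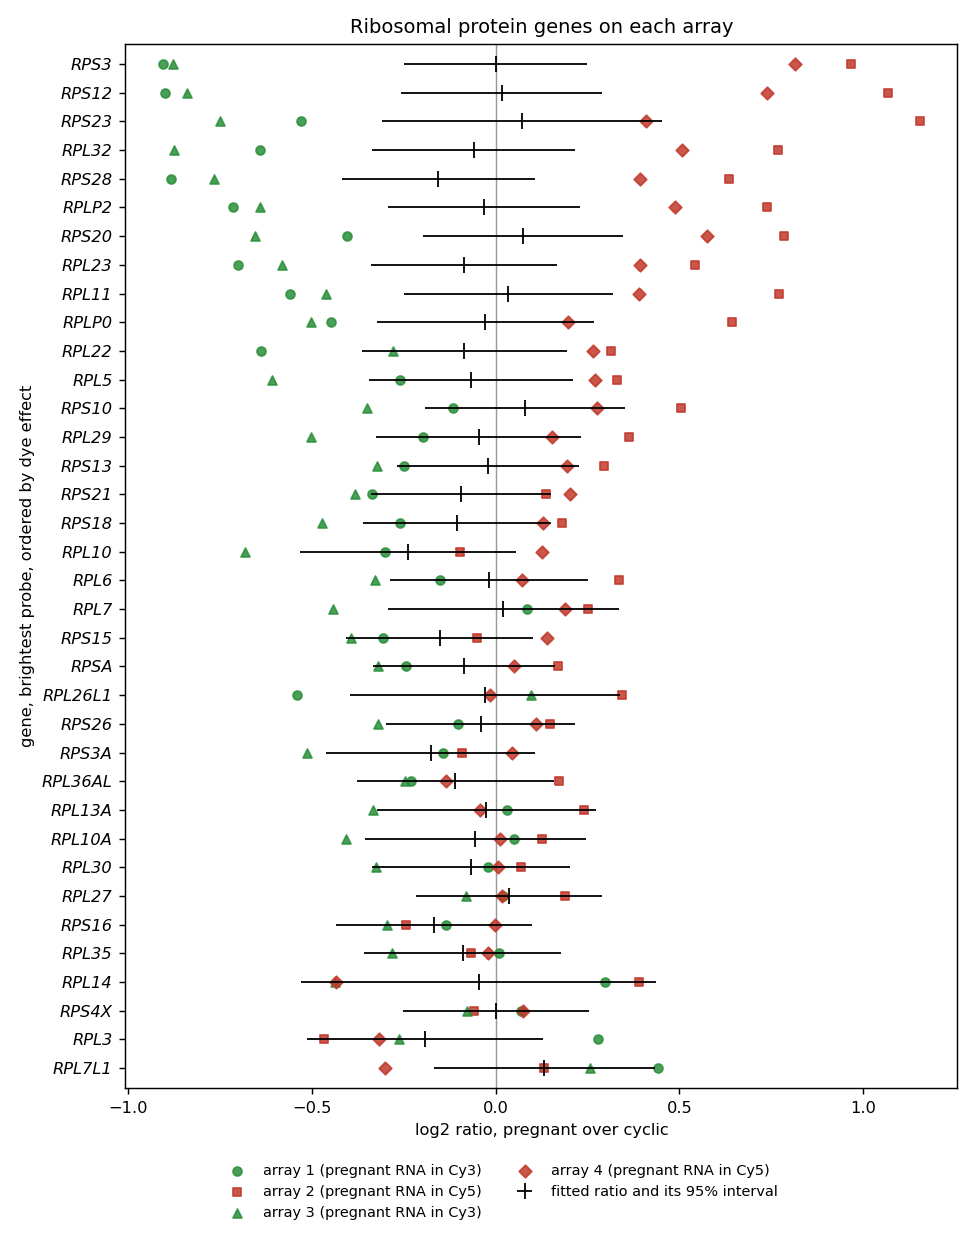
Log2 ratio of pregnant over cyclic (horizontal axis) for the brightest probe of 36 of the 37 genes (rows, ordered by dye effect) on arrays 1 to 4, coloured by the dye of the pregnant RNA, with the fitted ratio and its 95% interval in black. Toward the top the green points lie left of 0 and the red points right of it while the fitted ratio stays near 0, as for RPS3 with -0.90 and -0.88 on arrays 1 and 3 against 0.97 and 0.81 on arrays 2 and 4.

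The ratios of many members followed the dye. RPS3, RPS12, RPS23 and RPS28 are shown because they were among the genes of largest dye effect, so their alternation largely follows from that choice. RPS3, a protein at the messenger RNA entry of the small subunit, stood at -0.90, 0.97, -0.88 and 0.81 on arrays 1 to 4. Its normalized log2 intensity on arrays 1 to 4 was 17.13, 18.51, 17.37 and 18.19 in the pregnant channel and 18.03, 17.55, 18.25 and 17.38 in the cyclic channel. On each array the red channel was the higher, so the levels of the groups overlapped. The fit split this into a group term of -0.00049 ± 0.0996 and a dye effect of 0.89 ± 0.0996. RPS12, another small subunit protein, gave -0.90, 1.07, -0.84 and 0.74, with a group term of 0.016 ± 0.11 and a dye effect of 0.89 ± 0.11. RPS23, which lies at the decoding centre, gave -0.53, 1.15, -0.75 and 0.41, with a group term of 0.071 ± 0.15. RPS28 of the small subunit gave -0.88, 0.63, -0.77 and 0.39, with a group term of -0.16 ± 0.10. For these genes the arrays of opposite dye lay on opposite sides of 0 and those of the same dye lay on the same side. Not all members did so, and the dye effect was 0.0061 for RPS4X, 0.046 for RPS16 and -0.20 for RPL3.

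Over the family, 35 of 37 genes had a dye effect above 0, against 50.7% of all probes, and the median dye effect was 0.25, against 0.0029 over all probes. The loess normalization centres red over green near 0 on each array, so the all-probe share and median were largely set by it. The counts of genes take the brightest probe of each gene. Over all 187 member probes the values were lower, with 149 (79.7%) above 0, a median of 0.18, 90 (48.1%) higher in red on 4 of 4 arrays and 59 (31.6%) at an unadjusted limma p under 0.05. With the mean over the probes of a gene in place of its brightest probe the median over the 37 genes was 0.15. Red exceeded green on 4 of 4 arrays for 22 of 37 genes, against 11.7% of all probes, and green exceeded red on 4 of 4 for 0 of 37, against 8.3%. By an unadjusted limma p under 0.05, 18 of 37 genes had a dye effect, against 10.3% of all probes. All 18 were higher in red, against 5.57% of all probes, and 0 were higher in green, against 4.69%. None of the 37 passed at an adjusted p under 0.05 (0 of 25191 probes did). Of the summed squared ratios of the 187 probes, 69.5% lay in the dye effect, 10.4% in the group term and 20.1% in neither. Over the probes with a value on every array the shares were 30.6%, 30.6% and 38.8%. Over 246 other probes in the members' middle brightness range they were 31.6%, 19.0% and 49.4%. The share in neither covers 2 residual degrees of freedom, more than either term does. In that brightness range 165 of 247 other probes and 75 of 93 members had a dye effect above 0.

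**Figure D2:**
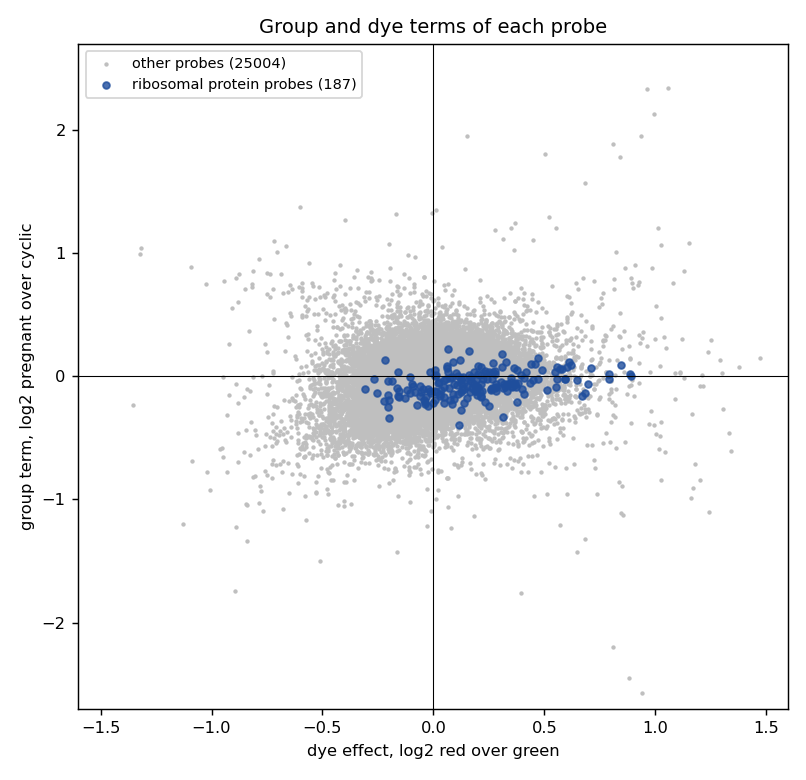
Fitted group term (vertical axis, log2 pregnant over cyclic) against fitted dye effect (horizontal axis, log2 red over green) for the 187 ribosomal protein probes (blue) and the other 25004 probes (grey). The blue points spread mainly along the horizontal axis, from -0.31 to 0.89, and on the vertical axis lie between -0.39 and 0.22.

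Correlations between arrays across the 187 probes, a description over probes that share array, brightness and often target, were positive for all 6 pairs when taken as red over green, from 0.48 to 0.69. Turning to pregnant over cyclic only changes the sign of the 4 pairs of opposite dye, to -0.67 to -0.48. The 2 pairs of equal dye keep their values, 0.49 and 0.69. The turned signs therefore follow from the red over green values and are no further observation. Over all probes the red over green correlations ran from -0.20 to 0.31. With the dyes as the labelling protocol's text has them, the dye effect and the group cannot be told apart. The 37 genes would then have a median of -0.25 in pregnant over cyclic, with 18 genes at an unadjusted limma p under 0.05, against 9.05% of all probes. All 18 were lower in the pregnant gland, against 5.38% of all probes, and 0 were higher, against 3.66%. None passed at an adjusted p under 0.05. On this reading RPS3 stood at -0.89 ± 0.092 (limma adjusted p = 0.526). The deposited ratios carry opposite signs of red over green on arrays 1 and 3 against arrays 2 and 4, as the label fields do.

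Brighter member probes had higher dye effects, and at the bright end other probes had them too. Across the 187 probes the Pearson correlation of the dye effect with the mean log2 intensity was 0.46 and Spearman's was 0.59, both descriptions. Over all probes kept they were 0.027 and -0.020. The loess normalization takes out the trend of red over green with intensity on each array, so these all-probe values near 0 were largely set by it. For the 44 members at an intensity of at least 17 on the log2 scale the median dye effect was 0.38, and for the other probes at least as bright it was 0.39. For the 61 members below 16 it was 0.057. In the middle brightness range the median dye effect was 0.15 for members and 0.11 for other probes. By array the red over green medians there were 0.072, 0.12, 0.39 and 0.050 for members on arrays 1 to 4 and 0.25, -0.025, 0.026 and 0.086 for other probes. Array 3 was the one on which they lay farthest apart, and all 93 members there were higher in red. The difference between the sets was not tested. Members made up 28.0% of the 157 probes at 17 or above and 27.4% of the 340 in the middle range, and so were part of the points that the intensity-dependent normalization followed. With members given no weight in that normalization the median dye effect of the 37 genes was 0.30 and the median group term -0.057.

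**Figure D3:**
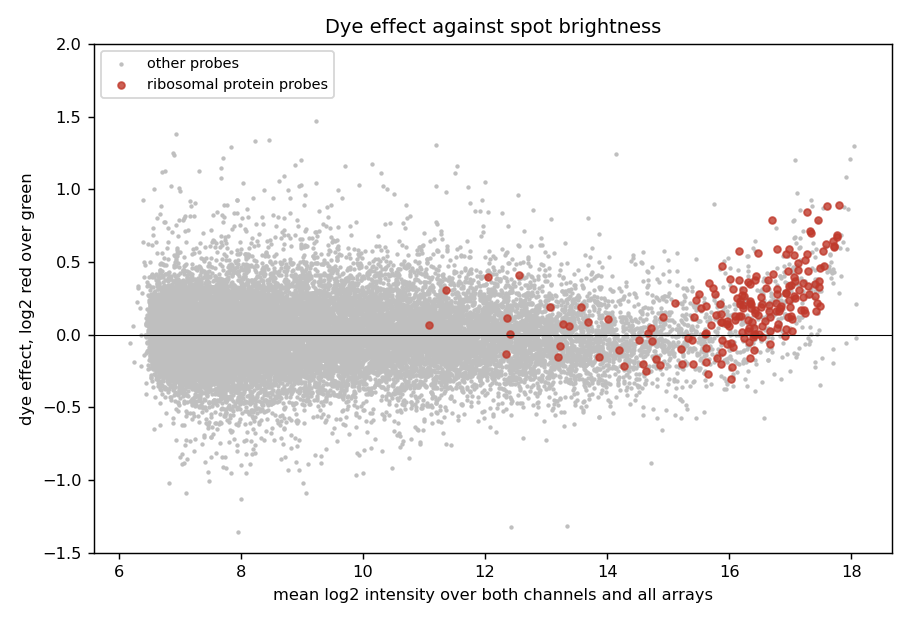
Fitted dye effect (vertical axis, log2 red over green) against the mean log2 intensity of a probe over both channels and all arrays (horizontal axis) for ribosomal protein probes (red) and other probes (grey). Both sets bend upward at the bright end, where members at 17 or above have a median of 0.38 and other probes one of 0.39.

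Many genes had several probes, and their values were compared within and between genes. Of the 37 genes 31 had more than 1 probe, and 27 had at least 3, together 173 probes. Within these 27 genes the pooled standard deviation between probes of a gene was 0.062 for the group term and 0.19 for the dye effect. Between the 27 gene means it was 0.095 for the group term and 0.19 for the dye effect. In pregnant over cyclic, probes of 1 gene lay closer together than the gene means did, while in the dye effect both figures were near equal. Each gene mean averages at least 3 probes, which by itself narrows the spread between means. Near-equal figures therefore do not show that the genes shared the same dye effect. Among these 27 genes the mean dye effect ran from -0.069 for RPL6 to 0.71 for RPS3, and the difference between genes was not tested. All probes had a group term below 0 in 13 of the 27 genes, above 0 in 3, and on both sides in 11. Probes of a gene share its transcript and are not replicates of the groups.

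Among the genes with many probes, RPL7 and RPS4X were chosen after the values were seen. RPL5, which carries 5S ribosomal RNA into the large subunit together with RPL11, had the most probes, 18. Its brightest probe gave -0.26, 0.33, -0.61 and 0.27 on arrays 1 to 4, so the groups overlapped. Its group terms ran from -0.14 to 0.013 with 17 of 18 below 0, and its dye effects ran from -0.097 to 0.40. The mean group term over the RPL5 probes was -0.069, but stood above 0, at 0.25, with background parameters from all spots. RPL11 gave -0.56, 0.77, -0.46 and 0.39, with a group term of 0.035 ± 0.11 and a dye effect of 0.55 ± 0.11. Its 3 probes lay between -0.0057 and 0.035 in the group term and between -0.10 and 0.55 in the dye effect. The 14 probes of RPL7, a large subunit protein, had group terms from -0.053 to 0.11, and the 14 of RPS4X, the X-linked small subunit protein, from -0.14 to 0.13.

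**Figure D4:**
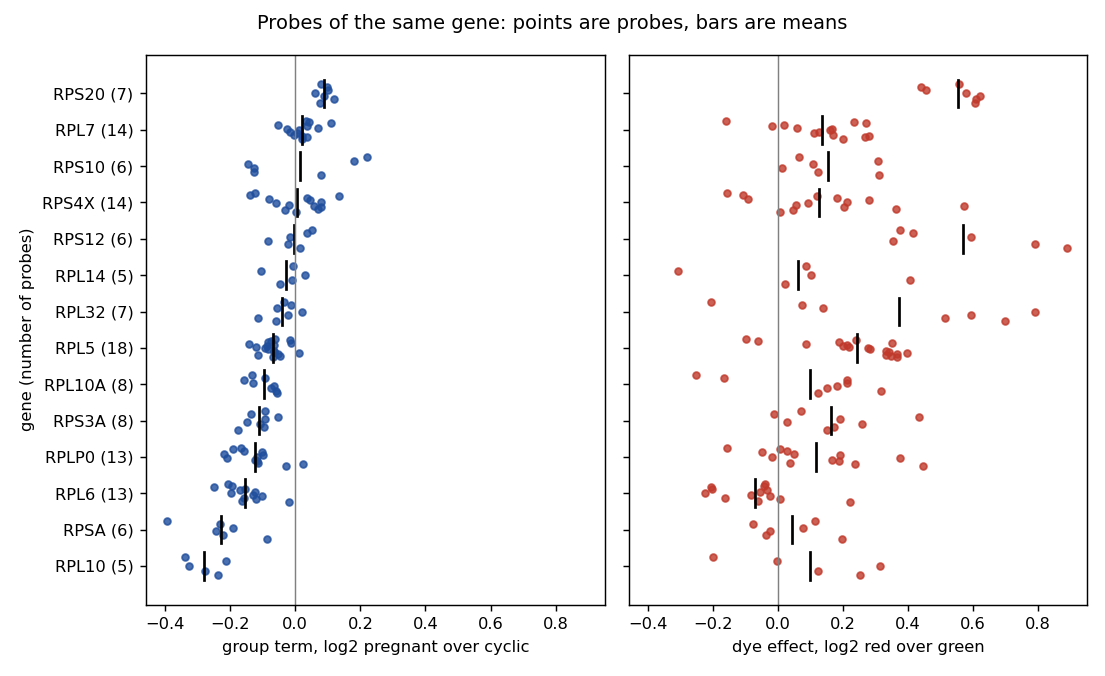
Group term (left, log2 pregnant over cyclic) and dye effect (right, log2 red over green) of every probe of the genes with at least 5 probes, one point per probe with a bar at the gene mean. On the left the probes of RPL5 lie close together, from -0.14 to 0.013, and on the right those of RPL32 spread from -0.21 to 0.79. The contrast does not hold for every gene. RPSA spreads about as widely on the left, from -0.39 to -0.086, as on the right, from -0.075 to 0.20.

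In the small subunit the 16 genes had a median group term of -0.031 and 6 were above 0. RPS16 was the 1 gene of the 37 whose brightest probe had the same sign on 4 of 4 arrays, with -0.14, -0.24, -0.29 and -0.00069, against 14.5% of all probes with 1 sign on every array, 7.73% with all below 0 and 6.79% with all above. Its group term was -0.17 ± 0.11 (limma adjusted p = 0.646), and its other probe stood at -0.18. RPSA, the small subunit protein that is also known as a laminin receptor, gave -0.24, 0.17, -0.32 and 0.051 by its brightest probe, a group term of -0.086 ± 0.0991. Its 6 probes all had a group term below 0, from -0.39 to -0.086, and 5 of them were below 0 on 4 of 4 arrays. The mean over its probes was -0.24, -0.14, -0.31 and -0.23 on arrays 1 to 4, and fitted as 1 value per gene it stood at -0.23 (limma adjusted p = 0.620). The probe of RPSA at -0.39 ± 0.13 was 1 of the 2 member probes with an unadjusted limma p under 0.05 (adjusted p = 0.605). The dye effects of the RPSA probes ran from -0.075 to 0.20, so this gene lay near the middle of the dye axis.

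RPS20, at the head of the small subunit, showed the other side and was chosen, as was RPL6, after the values were seen. Its brightest probe gave -0.40, 0.78, -0.65 and 0.57. All 7 probes had a group term above 0, between 0.060 and 0.12, beside dye effects from 0.44 to 0.62. The arrays with pregnant RNA in green were below 0 and those with it in red above, so the groups overlapped.

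In the large subunit the 18 genes had a median group term of -0.058 and 3 were above 0. RPL10, which joins the large subunit late in its assembly, had the lowest group term of the 37 genes and gave -0.30, -0.098, -0.68 and 0.13, with array 3 the lowest and array 4 above 0. Its group term was -0.24 ± 0.12 (limma adjusted p = 0.611). All 5 probes of RPL10 were below 0, from -0.34 to -0.21, and the mean over them was -0.17, -0.31, -0.59 and -0.049 on arrays 1 to 4. With background parameters from all spots that mean stood above 0, at 0.025, while the mean over the RPSA probes stayed below 0, at -0.20. A probe of RPL10 at -0.33 ± 0.12 was the other member probe with an unadjusted limma p under 0.05 (adjusted p = 0.605).

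RPL6, a protein of the large subunit, had 13 probes, all with a group term below 0, from -0.25 to -0.018, though their mean stood above 0, at 0.080, with background parameters from all spots. The mean over them was 0.11, -0.33, -0.28 and -0.11 on arrays 1 to 4, so array 1 lay apart in sign. RPL3, which lies near the peptidyl transferase centre, had 1 probe with 0.28, -0.47, -0.26 and -0.32 and a group term of -0.19 ± 0.13. By the brightest probes RPL3 was 1 of the 2 genes with a dye effect below 0, at -0.20 ± 0.13. Means over all probes of a gene were also below 0 for RPL6, at -0.069, and for RPS16, at -0.042. The probes of RPL6 ran from -0.22 to 0.22 in the dye effect, with the brightest the highest. RPL32 gave -0.64, 0.77, -0.88 and 0.51, with a group term of -0.060 ± 0.11 and a dye effect of 0.70 ± 0.11. RPL22, known to bind small viral RNAs as well, gave -0.64, 0.31, -0.28 and 0.26, a group term of -0.085 ± 0.11.

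The stalk was measured through RPLP0 and RPLP2. RPLP0, the base that anchors the stalk, gave -0.45, 0.64, -0.50 and 0.20, a group term of -0.028 ± 0.12 and a dye effect of 0.45 ± 0.12. Its 13 probes had group terms from -0.22 to 0.024, 12 of them below 0. Their mean was -0.12, but stood above 0, at 0.15, with background parameters from all spots. RPLP2, an acidic arm of the stalk, had 1 probe with -0.71, 0.74, -0.64 and 0.49, a group term of -0.032 ± 0.10 and a dye effect of 0.65 ± 0.10. For both, red was higher than green on all 4 arrays.

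Paralogs of ribosomal proteins were represented by RPL26L1 and RPL36AL, whose parents RPL26 and RPL36A had no matched probe. RPL26L1 gave -0.54, 0.34, 0.096 and -0.015, a group term of -0.029 ± 0.15, and its 4 probes ran from -0.14 to -0.029. RPL36AL gave -0.23, 0.17, -0.25 and -0.14, a group term of -0.11 ± 0.11. The assembly factor RPL7L1 gave 0.44, 0.13, 0.26 and -0.30, a group term of 0.13 ± 0.12, with its 3 probes between 0.056 and 0.13. Its dye effect of -0.22 ± 0.12 was the other one below 0 among the brightest probes.

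Other genes of translation and ribosome production were taken from lists of which few members had a probe. Of 3 genes tied to the ribosome but outside the naming rule, 0 were at an unadjusted p under 0.05. Among them RACK1, a scaffold on the small subunit, stood at -0.11 ± 0.12, and TPT1, an abundant translationally controlled protein, at 0.15 ± 0.13. EEF1A1, which brings transfer RNA to the ribosome, was as bright as the brightest members and stood at 0.0074 ± 0.13 with a dye effect of 0.43. Together with EEF1E1 it made up the 2 genes measured from the list of elongation and termination factor symbols. Of these 2 genes 0 were at that threshold.

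Of 10 genes with an initiation factor prefix, 0 were at an unadjusted p under 0.05. Not all 10 are initiation factors, and among them the kinase EIF2AK2 and the inhibitor EIF4EBP2 are regulators. EIF4A1, the helicase that unwinds messenger RNA, stood at -0.24 ± 0.13, and EIF4A3, its relative in the exon junction complex, at 0.15 ± 0.0995. Of 7 mitochondrial ribosomal protein genes, which serve a separate ribosome, 0 were at that threshold and the median was -0.089. MRPL16 stood at 0.27 ± 0.11 and MRPS18B at -0.26 ± 0.10, each with 1 sign on 4 of 4 arrays. Among 6 ribosome assembly genes 2 were at that threshold, in opposite directions, against 8.01% of all probes. UTP3, a small subunit processome protein, stood at 0.39 ± 0.11 with array 4 at -0.054, and PES1, needed for large subunit maturation, at -0.37 ± 0.11 and below 0 on 4 of 4 arrays. Of the 3 genes of growth control with a probe, AKT1, a kinase upstream of ribosome production, stood at -0.40 ± 0.15 as the 1 gene at that threshold, with array 2 at -1.03 and the others between -0.23 and -0.15. MYC, an activator of ribosomal genes, stood at 0.0011 ± 0.12. None of these genes passed at an adjusted limma p under 0.05.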

How the data were processed

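The arrays shared a slide and a scan, per the file headers, and were read by Agilent Feature Extraction 10.7.3.1, per the submitters' files. For every spot, the deposited scanner output gives median foreground and local background intensity per the file headers. The deposited value table gives log2 ratios by a method not given in the sources used here. Its entries matched log2 of the processed red over green intensity within 0.001 for all 43553 probes with 1 spot, after the sign was turned on arrays 1 and 3.

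Background was corrected in limma 3.58.1 under R 4.3.3 (with data.table version 1.17.8 and jsonlite 2.0.0) by normexp with an offset of 50, its parameters estimated without spots marked as outliers. Each array was normalized by loess with a span of 0.3 and control spots at weight 0. The 26 to 63 non-control spots marked as outliers on an array were dropped, and spots of a probe were averaged. A probe was kept when at least 4 of its 8 channels were well above background, which left 25191 of 43603. For each probe lmFit and eBayes fitted the pregnant over cyclic ratio and a dye effect, with 2 residual degrees of freedom and Benjamini-Hochberg adjustment over all kept probes. The procedure was tested on simulated data. The number of arrays limits the precision.

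Probes were named through RefSeq accessions by the Sscrofa11.1 annotation (6700 probes). Figures were drawn with matplotlib 3.10.9 in Python 3.11.15. Members and gene lists were chosen with earlier results of these data known. Genes are named with values by a fixed rule, which took the genes of 1 sign on all arrays with the lowest p, the 6 largest dye effects, the stalk, the 5S particle, paralogs and their parents, the gene with most probes and a few further genes. Genes outside it are said to be so, and the single values of 2 genes are not reported here. The alternatives tried are another background estimate, the deposited ratios, median centring, loess without the members, no dye term, separate channels, no filter, 1 feature per gene, the mean over probes, a single dye orientation, and each array left out. Means over all probes of a gene under these alternatives were added after seeing the data. RNA of an integrity number between 7.5 and 10 was used, per the labels' protocols. The marker list of red blood cells had no matched probe. Of the folliculostellate list GFAP alone had one, at -0.065, and of the leukocyte list CD14 and CD3E were tested, with 0 of 2 at an unadjusted p under 0.05. Of the dividing-cell list CCNB1, CDK1 and TOP2A were tested, with 0 of 3 at that p.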

Additional observations from a re-analysis of the deposited data

How the results depend on the processing

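The count of ribosomal protein genes at an unadjusted limma p under 0.05 was 0 of 37 with the settings used and in every alternative run except 2. It was 1 with separate channels (RPL10, limma adjusted p = 0.296), against 14.1% of all probes in that run. With the single dye orientation of the labelling protocol's text it was 18, against 9.05% of all probes. The median dye effect of 0.25 was 0.58 with background parameters from all spots, 0.10 in the deposited ratios and 1.17 when loess was replaced by median centring, where the median of all probes was 0.31. The median group term of -0.046 moved by more than the spread between arrays with the dye orientation means removed (SD 0.11) in 2 alternatives, to 0.27 with background parameters from all spots and to -0.25 with the single orientation, and the cause was not tested. Leaving out 1 array at a time gave -0.11 to 0.0047 for it and 0.21 to 0.28 for the dye effect, in fits that kept the dye term. Of 280 values of single genes under the alternatives 39 had the other sign, 11 of them with all spots, 32 moved by more than that gene's spread between arrays, and 0 passed at an adjusted p under 0.05. The count over all probes, 2019, ran from 918 to 3549, lowest without array 1 and highest with separate channels. The ratio within an array is itself a paired comparison of 1 pregnant and 1 cyclic gilt, and the labels give no other number shared between animals. All members were far above background. The p-values rest on the spread between these 4 pairs with the dye effect removed. limma moderates that spread toward a variance common to all kept probes, with 3.48 prior degrees of freedom.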
